A study of Arabidopsis thaliana with 48 samples.

Results

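CNA-KnC3HDZ is an Arabidopsis thaliana line that carries a chimeric form of the transcription factor CNA (CORONA), switched on by β-estradiol. The 3 induced and 3 mock libraries of this line were taken by their titles, which makes 6 of the 48 libraries of the series. The line labelled CNA-KnC3HDZ_8m is a separate line and was not counted among them. The label KnC3HDZ is not explained in the sources used here, so the line is named as labelled.

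T2 seedlings grown at 22 °C were sprayed at 9 days of age. Induced seedlings received 10 sprays of 50 µM β-estradiol, with DMSO at 1% and the wetting agent Silwet L-77 at 0.005%, and mock seedlings received the same solution without β-estradiol. Whole seedlings were collected 24 h later, and the 3' ends of polyadenylated RNA were sequenced with QuantSeq. Induced and mock seedlings of the line carry the same construct, so the comparison is between treatments of 1 genotype. No line without a construct is among the 48 libraries. An effect of β-estradiol itself therefore cannot be told apart from an effect of the construct. In the T2 generation a transgene can still segregate. How many independent transformants the line stands for, the promoter that drives the construct and the hour of collection are not given in the sources used here. The response was compared with that of 3 other lines, each with 3 induced and 3 mock libraries treated in the same way: CNA, CNA-SDdelta and CNA-KnC3HDZ_8m. The purpose stated by the submitters is to find the genes that change after induction of HD-ZIPIII factors.

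HD-ZIPIII (class III homeodomain leucine zipper) proteins bind DNA as dimers through a homeodomain and a leucine zipper. In Arabidopsis the family consists of REV, PHB, PHV, CNA (also ATHB-15) and ATHB-8, which act in the shoot meristem, on the upper side of leaves and in the vasculature. They are known to switch on the LITTLE ZIPPER genes (ZPR), which encode small leucine zipper proteins that pair with HD-ZIPIII proteins and hold them in an inactive form. A rise in ZPR transcripts is therefore a usual readout of HD-ZIPIII activity.

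Counts per library ran from 5412713 to 7181517, except in induced replicate 2, which had 37222617. At these depths 3 counts correspond to 0.08 to 0.564 CPM (counts scaled to 1e+06 per library with TMM factors). The mesophyll markers RBCS1A, RCA and LHCB1.3 were at 278 CPM or more in each of the 6 libraries and the root endodermis markers CASP1 and CASP2 between 13.3 and 54.6 CPM. The root hair genes EXPA7 and COBL9 were at 0.327 CPM or less, although the label reads whole seedling. The seed genes SESA1, CRA1 and OLEO1 were at 0.534 CPM or less. Libraries of a group correlated at 0.91 to 0.953 (Pearson, log2 CPM across genes, which are not independent). Pairs of an induced and a mock library correlated at 0.883 to 0.938, so the ranges overlapped. Induced replicate 3 lay farthest from the others on the first principal component. In whole seedlings, fewer cells of a type and less RNA per cell cannot be told apart.

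Induction changed 624 of 18909 tested genes (3.3%) by edgeR's quasi-likelihood test at a Benjamini-Hochberg adjusted p below 0.05. Of these, 225 were higher (1.19%) and 399 lower (2.11%). The median log2 change of the called genes was 1.15 in size among those that rose and 1.44 among those that fell, while that of all tested genes was 0.01. Induced and mock libraries did not overlap in 622 of the 624, against 24.2% of all tested genes. The calls were made from these same libraries, so this gives no separate support for them. When the spread was estimated from the 6 libraries of the line alone, 1603 genes were called, of which 661 were higher. The biological coefficient of variation was 36.4% in that fit and 60.9% over all lines. Without induced replicate 3 the count was 392. The count of higher genes was 123 without induced replicate 3, 138 without induced replicate 2, and 140 and 135 without mock replicates 1 and 3. The labels call the replicates biological, but do not say whether seedlings came from separate plates. The p-values therefore measure the spread between sampled libraries, estimated over the libraries of all lines unless stated otherwise.

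The transcript of CNA itself rose. ATHB-15 (AT1G52150) was at 70.5, 57.8 and 33.3 CPM in the induced libraries and at 21.5, 13.4 and 20.8 CPM in the mock libraries. The groups did not overlap, and induced replicate 3 was the lowest of the induced libraries. The log2 change was 1.54 (SE 0.42), with an adjusted p of 0.0204 by edgeR's quasi-likelihood test. It was 0.0184 without induced replicate 3, and 0.15, 0.0953, 0.0541, 0.174 and 0.0641 when induced replicate 1, induced replicate 2 or mock replicates 1, 2 and 3 were left out. Whether these reads came from the construct or from the plant's own gene cannot be told apart in gene counts. The other family members did not pass the test, with log2 changes of -0.14 for REV, 0.05 for PHB, 0.30 for PHV and -0.61 for ATHB-8.

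The LITTLE ZIPPER genes stood among the clearest rises. ZPR1 (AT2G45450) was at 581, 459 and 742 CPM after induction and at 55.0, 92.1 and 90.2 CPM in mock seedlings. ZPR4 (AT2G36307) was at 105, 75.4 and 128 CPM against 7.30, 6.76 and 10.5 CPM. Every induced library was above every mock library for both genes. The log2 changes were 2.91 (SE 0.31, adjusted p = 7.1e-10) and 3.65 (SE 0.49, adjusted p = 2.2e-07) by edgeR's quasi-likelihood test. ZPR3 (AT3G52770) was at 25.7, 29.6 and 34.0 CPM against 5.92, 3.31 and 4.57 CPM, again without overlap, but its log2 change of 2.69 (SE 0.95) had an adjusted p of 0.141 in the same test. Estimated from the 6 libraries alone it was called, with an adjusted p of 2.42e-06. ZPR2 had too few counts to be tested.

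**Figure D1:**
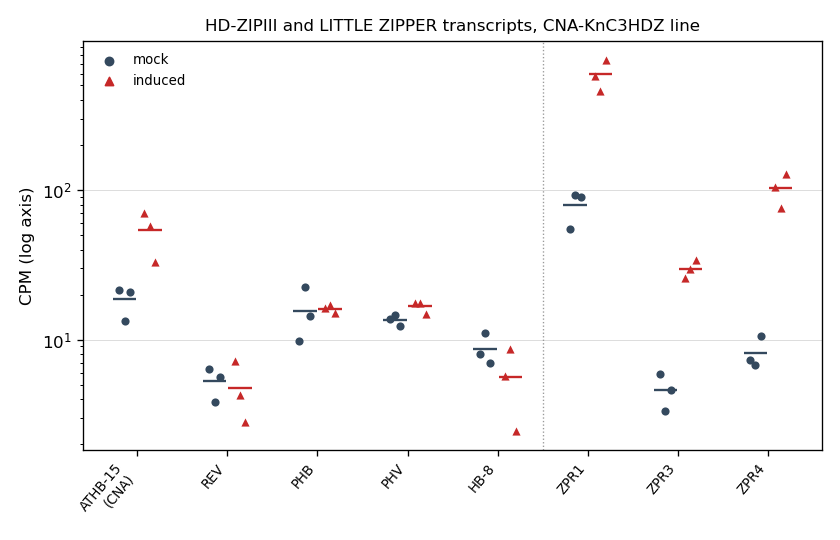
CPM (log axis) of the 5 HD-ZIPIII genes and 3 LITTLE ZIPPER genes in each mock (circles) and induced (triangles) library of the CNA-KnC3HDZ line, with group means as bars. ATHB-15, the 3 ZPR genes and PHV lie apart between the groups, PHV narrowly and without being called, while REV, PHB and HB-8 (ATHB-8) overlap.

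The sequences upstream of the genes were searched for TAATNATTA, a pattern used here for the core of the palindrome that HD-ZIPIII proteins bind in vitro. N stands for any base, so matches are not limited to sites of HD-ZIPIII proteins. The 300 bases before the annotated start of each gene were read on both strands from the TAIR10.1 genome. A match to this pattern was found in 4.56% of 18888 tested genes, in 6 of the 225 that rose (2.67%) and in 12 of the 399 that fell (3.01%). No binding was measured in these data. The window of ZPR1 (chr2:18734342-18734641, minus strand) is shown because ZPR1 is among the best known targets of the family. It holds no core within these bases, so no letter is in capitals, and this says nothing of the windows of other ZPR genes.
ZPR1: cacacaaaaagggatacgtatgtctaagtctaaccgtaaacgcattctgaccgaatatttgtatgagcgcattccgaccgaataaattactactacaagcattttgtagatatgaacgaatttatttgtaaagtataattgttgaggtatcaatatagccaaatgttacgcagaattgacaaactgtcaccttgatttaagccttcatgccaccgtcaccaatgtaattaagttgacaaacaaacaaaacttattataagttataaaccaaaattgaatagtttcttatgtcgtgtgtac

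The genes with the largest rises included several of the cell wall and of secreted peptides. GASA1 (AT1G75750), a small cysteine-rich secreted protein of a gibberellin-responsive family, was at 1304, 3120 and 4496 CPM after induction and at 116, 134 and 111 CPM in mock seedlings. Its log2 change was 4.63 (SE 0.39, adjusted p = 1.73e-13, edgeR's quasi-likelihood test), and induced replicate 3 was the highest library. XTH15 and XTH25 encode xyloglucan endotransglucosylase/hydrolases, which cut and rejoin the xyloglucan that tethers cellulose. XTH15 (AT4G14130) was at 63.0, 155 and 172 CPM against 2.07, 3.84 and 2.88 CPM, a log2 change of 5.46 (SE 0.91). XTH25 (AT5G57550) was at 38.9, 38.2 and 37.8 CPM against 1.79, 2.52 and 1.02 CPM, a log2 change of 4.40 (SE 0.68). The expansin-like gene EXLA1 (AT3G45970) was at 67.1, 86.5 and 82.7 CPM against 7.71, 5.43 and 6.94 CPM, a log2 change of 3.55 (SE 0.41). In each of these genes the lowest induced library was far above the highest mock library, although groups without overlap were a condition for choosing them. The others of the 10 largest rises, besides ZPR1 and ZPR4, were EXL5 (EXORDIUM-LIKE 5; log2 change 4.16), AT5G14920 of the GASA family (3.96), SOB5 (3.52) and the arabinogalactan protein gene AGP7 (2.98). RABG3B, a Rab GTPase, and AGT3, an alanine-glyoxylate aminotransferase, were also among the 5 smallest p-values of genes that rose. AGT3 (AT2G38400) went from 466 ± 9.72 to 1896 ± 103 CPM (mean ± SD, n = 3).

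The largest falls were in genes of chloroplast lipids, starch breakdown and electron transport, and in genes with no role given here. CT-BMY (AT4G17090) encodes a β-amylase of the chloroplast that releases maltose from starch. It was at 18.6, 12.2 and 14.8 CPM after induction and at 422, 381 and 343 CPM in mock seedlings, a log2 change of -4.66 (SE 0.37, adjusted p = 4.96e-14, edgeR's quasi-likelihood test). FADA (AT4G27030), a chloroplast fatty acid desaturase that acts on phosphatidylglycerol, was at 0.654, 1.17 and 0.564 CPM against 29.1, 29.4 and 28.3 CPM. Its log2 change was -5.03 (SE 0.79). NdhM (AT4G37925), a subunit of the chloroplast NADH dehydrogenase-like complex, was at 1.80, 3.07 and 0.188 CPM against 58.4, 53.0 and 47.9 CPM, with a log2 change of -4.80 (SE 0.83). AT2G15020 fell the most, from 74.8, 63.5 and 80.2 CPM to 0.818, 0.480 and 0.188 CPM, with a log2 change of -7.15 (SE 0.63). Groups without overlap were a condition for choosing these 4 genes. The other large falls were cPT4 (-4.53), a cis-prenyltransferase, AT3G28270 (-4.33), AT1G65490 (-4.18), the UDP-glycosyltransferase gene HYR1 (-3.83), AT2G21210 (-3.81) and the glutathione S-transferase gene GSTU18 (-3.60). By smallest p-value they were joined by AT3G57020 (-2.30), the glycerol-3-phosphate permease gene G3Pp1 (-3.15) and AFR (-2.91), an F-box gene of far-red light signalling. XTH15, EXLA1, CT-BMY, FADA, cPT4, HYR1, AT2G21210, GSTU18, RABG3B and AFR overlap another counted gene in the annotation, so part of their counts could be split or shared.

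**Figure D2:**
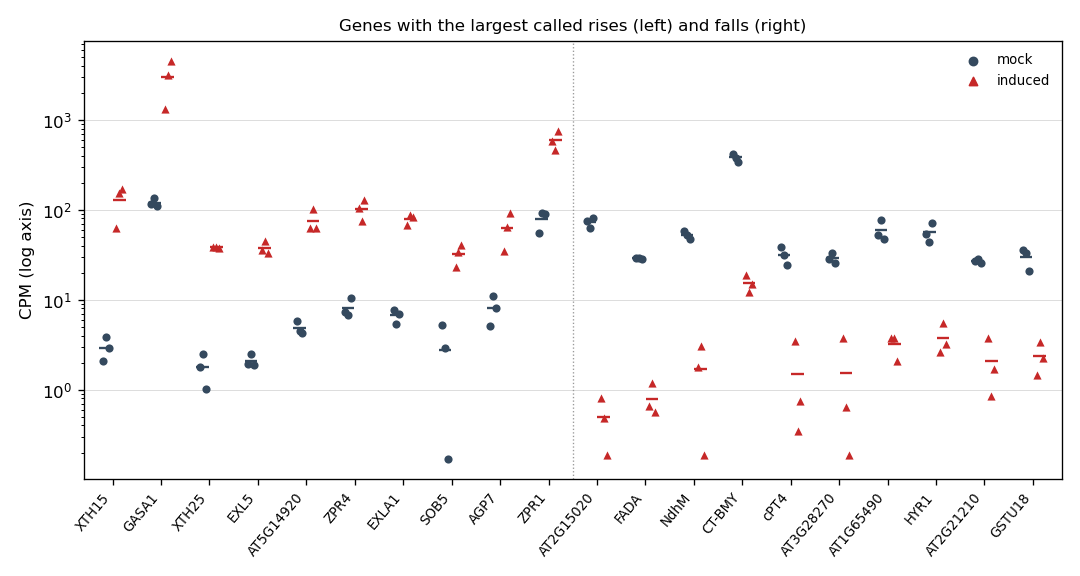
CPM (log axis) in each mock (circles) and induced (triangles) library of the 10 genes with the largest called rises and the 10 with the largest called falls, with group means as bars. Only called genes without overlapping groups and with a mean of at least 20 CPM in the higher group were considered, so the groups lie apart by choice. XTH15 goes from a mock mean of 2.93 to 130.0 CPM.

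Gene lists are set beside the shares over all tested genes, 1.19% higher and 2.11% lower. Members and lists were chosen with earlier results of these data known, so their counts describe and test nothing. Of the 624 called genes, 97 belonged to at least 1 of the 37 lists, and 12 lists had no called member. Those 12 were HD-ZIPII genes, leaf polarity genes, shoot meristem and KNOX genes, auxin synthesis and transport, salicylic acid, jasmonate, ethylene, glucosinolates, xylem and secondary wall, root endodermis and root hair, cell cycle, and iron and phosphate.

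Wall-related genes moved in both directions. Of 20 tested XTH genes, 4 rose and none fell, and the list had a median log2 change of 0.71. XTH24 (AT4G30270) was at 1183, 1251 and 1408 CPM against 279, 411 and 387 CPM, a log2 change of 1.84. XTH16 was the other call, and it was called without induced replicate 1 but not without any of the other 5 libraries (adjusted p up to 0.222). Of 21 tested expansin genes, which loosen the wall, EXLA1 rose and 4 fell, with a median of -0.85. EXPA1 (AT1G69530) was at 29.9, 27.5 and 30.6 CPM against 173, 236 and 228 CPM, a log2 change of -2.86 (SE 0.44). EXPA8, EXPA4 and EXPA10 were called with all 6 libraries, but the count of lower expansin genes was 1 to 3 with 1 library left out. It was 1 without induced replicate 1 or mock replicate 3, and 2 without induced replicates 2 or 3 or mock replicate 1.

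Arabinogalactan and fasciclin-like proteins are glycoproteins of the cell surface. The list was added after values had been seen, so its count too describes and tests nothing. Of 40 tested members 10 rose and none fell, and the median log2 change was 0.78. FLA2 (AT4G12730) was at 70.7, 108 and 104 CPM against 13.5, 24.3 and 14.6 CPM, a log2 change of 2.43. AGP21 (AT1G55330) was at 91.4, 135 and 213 CPM against 21.2, 30.0 and 27.4 CPM, a log2 change of 2.48. Neither gene had overlapping groups. The count of members that rose was 6 to 9 with 1 library left out, and 6 without induced replicate 3. Among 14 gibberellin genes, GASA1 and AT5G14920 rose and none fell.

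Of 17 tested circadian clock genes 6 fell and none rose, with a median log2 change of -0.43 and 8 members above 0. Estimated from the 6 libraries of the line alone, 6 were lower and 4 higher. CCA1 (AT2G46830) and LHY are MYB-like repressors that peak around dawn, and RVE1 and RVE8 belong to the same family. CCA1 was at 56.9, 48.2 and 34.0 CPM after induction and at 211, 191 and 209 CPM in mock seedlings, a log2 change of -2.13 (SE 0.28, adjusted p = 2.04e-07, edgeR's quasi-likelihood test). LHY (AT1G01060) was at 170, 118 and 85.5 CPM against 257, 305 and 340 CPM, a log2 change of -1.27. RVE1 (AT5G17300) was at 77.4, 67.5 and 59.0 CPM against 341, 265 and 285 CPM, and RVE8 (AT3G09600) changed by -1.42. The groups were apart in all 4 genes, and induced replicate 3 was the lowest in each. LNK1 (AT5G64170, log2 change -1.16) and LNK2 (AT3G54500, -0.79), coactivators of RVE8, made up the 6. The evening genes TOC1 and LUX, picked after values were seen, were not called. The highest log2 change of the list, 4.86, was in another member, which was not called either. TOC1 was at 27.0, 25.3 and 9.77 CPM against 8.68, 8.08 and 3.56 CPM, with a log2 change of 1.61 and an adjusted p of 0.0548. LUX (named PCL1 in the annotation) was at 7.85, 14.0 and 17.7 CPM against 3.17, 4.11 and 1.69 CPM, with a log2 change of 2.13 and an adjusted p of 0.227. With 1 library left out, 4 or 5 clock genes were called lower, 4 of them in each fit except that without induced replicate 1, and 1 clock gene was called higher without induced replicate 3.

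**Figure D3:**
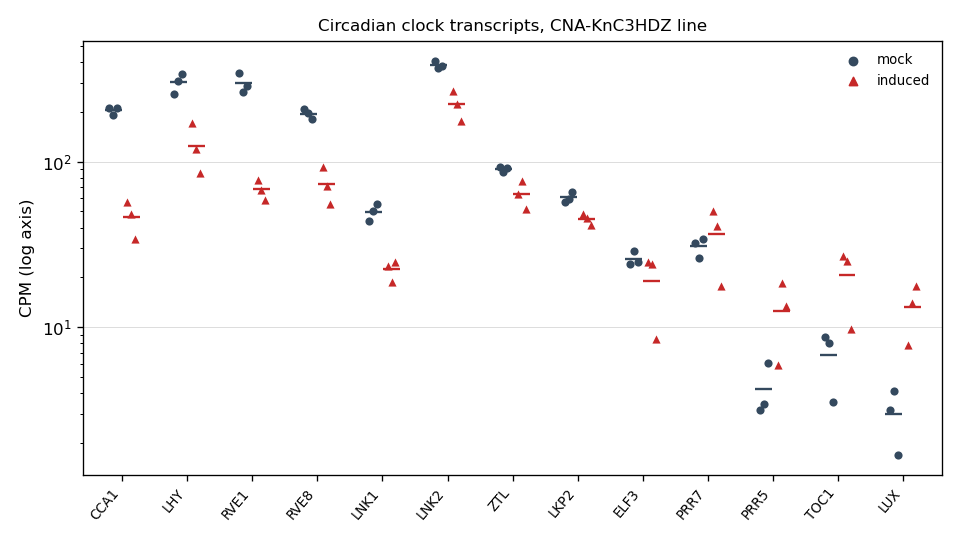
CPM (log axis) of 13 circadian clock genes in each mock (circles) and induced (triangles) library of the CNA-KnC3HDZ line, with group means as bars. CCA1, LHY, RVE1, RVE8, LNK1 and LNK2 were called lower, and TOC1 and LUX were not called. Not every member of the list is shown.

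The evening element, AAAATATCT, is a DNA motif bound by CCA1, LHY and RVE8. It was found on either strand of the 300 upstream bases in 2.9% of all 18888 genes, in 21 of the 225 that rose (9.33%) and in 12 of the 399 that fell (3.01%). The 4 genes that rose with the smallest p-values among the 21 are shown by 60 bases around the element closest to the start, with every copy of AAAATATCT or its reverse complement AGATATTTT in capitals. They were chosen after values had been seen. The windows lie on the minus strand, at chr2:6922193-6922252 for MEE14, chr5:5759818-5759877 for AT5G17460, chr4:18275217-18275276 for CCR1 and chr2:9266558-9266617 for GRP7.
MEE14: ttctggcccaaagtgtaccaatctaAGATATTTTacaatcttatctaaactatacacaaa
AT5G17460: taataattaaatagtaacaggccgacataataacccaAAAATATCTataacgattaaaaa
CCR1: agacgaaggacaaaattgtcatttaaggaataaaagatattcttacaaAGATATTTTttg
GRP7: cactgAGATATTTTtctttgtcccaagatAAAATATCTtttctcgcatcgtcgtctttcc

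CCR1 and GRP7 are glycine-rich RNA-binding proteins whose transcripts peak in the evening. GRP7 (AT2G21660), with 3 copies in its 300 bases, went from 337 ± 53.2 to 845 ± 174 CPM, a log2 change of 1.33 (SE 0.22). CCR1 (AT4G39260) went from 273 ± 22.9 to 742 ± 118 CPM, a log2 change of 1.45 (SE 0.21). MEE14 went from 246 ± 9.01 to 679 ± 125 CPM and AT5G17460 from 48.6 ± 3.81 to 205 ± 51.6 CPM (mean ± SD, n = 3 in each). The bases taataatta at the start of the AT5G17460 window match TAATNATTA, the pattern searched above. They are in small letters because capitals mark the evening element only. A motif match describes these letters and shows no binding, and motifs other than these were not examined.

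B-box genes, zinc finger regulators of light signalling and flowering, were added as a list after values had been seen. Of 26 tested, 9 fell and none rose, with a median of -0.74. COL2 (AT3G02380) was at 21.1, 23.1 and 21.0 CPM against 181, 153 and 181 CPM, a log2 change of -2.97. BBX30 (AT4G15248) was at 7.69, 4.72 and 10.5 CPM against 57.7, 56.3 and 82.3 CPM, a log2 change of -3.15. STH (AT2G31380) fell by 2.38 and BBX32 (AT3G21150) by 5.47 on the log2 scale, the latter from means of 9.60 to 0.152 CPM. COL2, STH and BBX32 overlap other counted genes. So do LNK1, LNK2, RCA, AGP16, GUN4, PORB, BMY3, DWF1 and ABF3.

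Photosynthesis genes fell unevenly. Of 14 Rubisco and Calvin cycle genes 10 fell and none rose, with a median log2 change of -1.44. RBCS1B (AT5G38430), a small subunit of Rubisco, was at 69.2, 114 and 54.5 CPM against 528, 527 and 585 CPM, a log2 change of -2.78 (SE 0.35). RCA (AT2G39730), Rubisco activase, was at 408, 379 and 278 CPM against 1409, 1413 and 1508 CPM, a log2 change of -2.02. FBA1 (AT2G21330), a chloroplast aldolase, changed by -2.50 and GAPB (AT1G42970) by -1.67. Members of the RBCS family are near-identical, so reads could be split among them. Of 32 light-harvesting and photosystem genes 8 fell, none rose and 24 were not called, with a median of -0.45. LHCB2.1 (AT2G05100), an antenna protein of photosystem II, was at 803, 790 and 539 CPM against 2294, 2994 and 2436 CPM, a log2 change of -1.86. NPQ4 (AT1G44575), the PSBS protein that dissipates excess light, changed by -2.14, LHCB2.2 by -1.71 and PSBO2 by -1.30. LHCB2.1 and LHCB2.2 are close copies of each other. The count of photosystem genes that fell was 5 without induced replicate 1 and 11 without induced replicate 2. The summed level of the 32 genes was 30360 to 41181 CPM in induced libraries and 44730 to 50097 CPM in mock libraries.

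Genes of other chloroplast functions were grouped in lists that were added after values had been seen. Of 16 genes of the NADH dehydrogenase-like complex 4 fell, with a median log2 change of -1.19. The count was 2 or 3 with 1 library left out, and 2 without induced replicate 2, induced replicate 3 or mock replicate 1. NdhU (AT5G21430) was at 2.13, 4.88 and 3.95 CPM against 40.4, 42.8 and 40.6 CPM, a log2 change of -3.46. Of 16 starch breakdown genes 3 fell: CT-BMY, BAM1 (AT3G23920; -1.76) and BMY3 (-1.27), all β-amylases. This count was 3 in every fit with 1 library left out. Of 19 genes of chlorophyll synthesis 5 fell and 1 rose, with a median of 0.06 and 10 members above 0. GUN5 (AT5G13630), a subunit of magnesium chelatase, was at 128, 158 and 65.8 CPM against 345, 367 and 342 CPM. GUN4 changed by -1.62, CAO by -0.95 and HEMA1 by -1.03. PORB (AT4G27440), a protochlorophyllide oxidoreductase, was at 69.3, 131 and 108 CPM against 32.6, 54.5 and 45.5 CPM, a log2 change of 1.22. It was not called without induced replicate 2, induced replicate 3 or mock replicate 1 (adjusted p up to 0.157).

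Genes of nitrogen assimilation fell as well. Of 15 nitrate and sulfate genes 5 fell and none rose, with a median of -0.80. NIA2 (AT1G37130), the main nitrate reductase, was at 857, 664 and 512 CPM against 2183, 2601 and 2987 CPM, a log2 change of -1.93 (SE 0.25). NIA1 (AT1G77760), the other nitrate reductase, was at 114, 97.2 and 51.7 CPM against 214, 318 and 392 CPM, a log2 change of -1.81. GS2 (AT5G35630), chloroplast glutamine synthetase, changed by -1.19. The count was 3 without induced replicate 3. Libraries of the groups were apart for NIA2, NIA1 and GS2, with induced replicate 3 the lowest.

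Of the 37 lists, that of cytokinin response had the lowest median. Of 11 cytokinin response genes 3 fell and none rose, with a median log2 change of -1.53 and 1 of 11 above 0. The 3 are type-A response regulators, which cytokinin induces and which dampen its signal. ARR4 (AT1G10470) was at 35.5, 39.7 and 42.5 CPM against 124, 115 and 140 CPM, a log2 change of -1.69 (SE 0.27). ARR7 (AT1G19050) was at 4.58, 7.34 and 15.4 CPM against 77.1, 73.2 and 93.3 CPM, a log2 change of -3.17, and had an adjusted p of 0.0589 without induced replicate 1. ARR9 (AT3G57040) was at 44.2, 54.3 and 51.3 CPM against 100.4, 118 and 104 CPM, a log2 change of -1.11. Of 23 abscisic acid genes 3 fell, of which ABA1 (AT5G67030), zeaxanthin epoxidase, changed by -1.50. The abscisic acid count was 1 without induced replicate 3. WES1, which conjugates auxin to amino acids, was the call among 26 auxin response genes (log2 change 0.97), and DWF1, a sterol reductase, that among 15 brassinosteroid genes (0.74). Both lost the call when certain libraries were left out, WES1 without induced replicates 2 or 3 or mock replicates 1 or 3 (adjusted p up to 0.356) and DWF1 without induced replicate 2 or mock replicate 1 (up to 0.0989).

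Cold and dehydration genes were split. Of 18 tested 4 rose and 2 fell, with a median of 0.31. LTI30 (AT3G50970), a dehydrin, was at 648, 525 and 534 CPM against 214, 174 and 198 CPM, a log2 change of 1.54 (SE 0.22). LTI78 and LTI65 rose by 1.07 and 1.02 on the log2 scale, KIN1 was also called higher, and COR15A and RD22 fell by 1.75 and 0.74. Leaving out 1 library gave 1 to 4 members higher and 0 to 3 lower. With mock replicate 2 left out 1 was higher and with induced replicate 1, induced replicate 2 or mock replicate 3 left out 2 were. None was lower without induced replicate 2, induced replicate 3 or mock replicate 1.

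Of 20 wax and cutin genes 2 fell, KCS6 (AT1G68530) and KCS10, both elongases of very long chain fatty acids. KCS6 was at 434, 421 and 364 CPM against 697, 867 and 1042 CPM, a log2 change of -1.10. KCS10 was not called without any 1 of the 6 libraries. Of 17 aquaporins 3 fell, PIP1;4 (AT4G00430; log2 change -0.88), GAMMA-TIP and PIP1B. GAMMA-TIP was not called without induced replicate 1, and PIP1B not without induced replicate 3 or mock replicate 2. UGT78D2 (AT5G17050), a flavonoid glucosyltransferase, was the call among 12 flavonoid genes and changed by -2.41. The lists of lipid transfer proteins, heat shock and shade each had 1 member lower, LP1, HSFB2A and STO. HSFB2A lost the call whichever library was left out, LP1 without induced replicates 1 or 2 or mock replicate 3, and STO without induced replicate 2 or mock replicate 3.

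**Figure D4:**
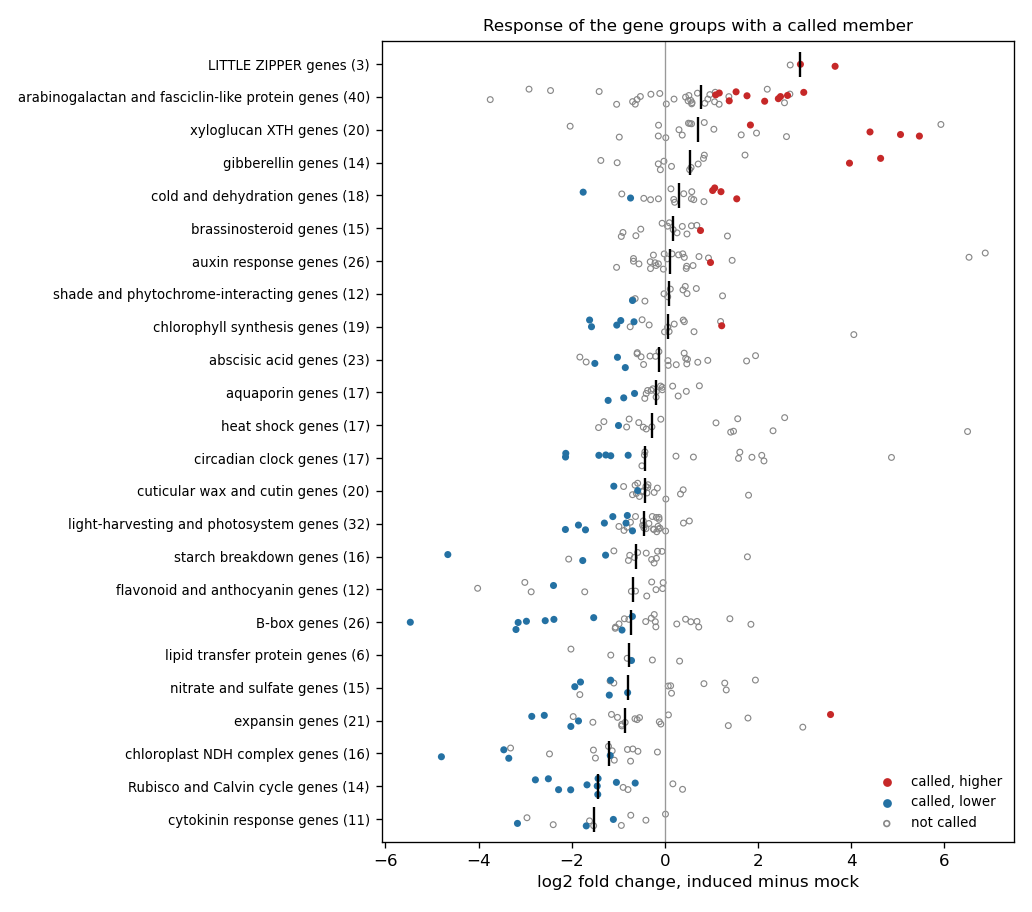
Log2 change on induction (induced minus mock) of each tested member of the gene lists with a called member other than the HD-ZIPIII list, with the number tested in parentheses. Filled points were called, red for higher and blue for lower, open points were not called, and bars mark list medians, which run from -1.53 for cytokinin response to 2.91 for LITTLE ZIPPER genes.

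The response of CNA-KnC3HDZ was set against that of the CNA line, in which 1514 genes (8.01%) were called, 4.05% higher and 3.96% lower. Of the genes called in CNA-KnC3HDZ, 352 were also called in CNA, which is 56.4% of the former and 23.2% of the latter. In 108 of them both lines rose, in 229 both fell and in 15 they went opposite ways. The difference itself, tested as an interaction term with edgeR, was called for 289 genes (1.53%), 83 with a higher and 206 with a lower response in CNA-KnC3HDZ. The count was 489 by DESeq2, 547 with the 12 libraries of both lines alone and 192 without mock replicate 3. Of the 624 genes called in CNA-KnC3HDZ, 80 (12.8%) had a called difference. The mock seedlings of both lines differed in 26 genes (0.138%), 0.0635% higher and 0.074% lower in CNA-KnC3HDZ, and in 8, 13 and 10 genes without mock replicates 1, 2 and 3 of CNA-KnC3HDZ.

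ZPR1 and ZPR4 rose in both lines, with a log2 change of 3.79 for ZPR1 and 3.52 for ZPR4 in CNA. Their differences were -0.88 (SE 0.42, adjusted p = 0.459) and 0.13 (SE 0.65, adjusted p = 0.991), which does not show that the responses were equal. ATHB-15 rose by 1.89 on the log2 scale in CNA (adjusted p = 0.00134), with a difference of -0.35 (SE 0.58).

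The log2 changes of many cold and wax genes were lower in CNA-KnC3HDZ than in CNA. Of 18 cold and dehydration genes, 14 had a lower response in CNA-KnC3HDZ and none a higher one, where 1.09% of all genes were lower and 0.439% higher. LTI30 went from 195 ± 20.2 to 569 ± 68.6 CPM in CNA-KnC3HDZ and from 83.0 ± 5.08 to 2084 ± 696 CPM in CNA (mean ± SD, n = 3). Its difference was -3.11 (SE 0.31, adjusted p = 4.49e-10, edgeR's quasi-likelihood test). LTI30 was also called different between the mock seedlings of these lines (adjusted p = 0.00278). Of 20 wax and cutin genes, 11 had a lower response and none a higher one, with list medians of -0.44 in CNA-KnC3HDZ and 1.06 in CNA. KCS6, for example, changed by -1.10 in CNA-KnC3HDZ and by 0.84 in CNA. KCS1, an elongase of this list, went from 130.0 ± 24.5 to 83.2 ± 11.8 CPM in CNA-KnC3HDZ and from 118 ± 24.7 to 428 ± 46.2 CPM in CNA, a difference of -2.50 (SE 0.31). TSPO, a membrane protein induced by abscisic acid, differed by -3.18, FMO GS-OX4, a flavin monooxygenase of glucosinolate metabolism, by -3.21 and the glutathione S-transferase gene GSTF8 by -2.28. BAM1 (-2.11), CT-BMY (-1.95), NIA1 (-2.48) and NIA2 (-1.68) also had lower responses in CNA-KnC3HDZ.

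In the other direction stood light-harvesting and wall genes. Of 32 light-harvesting and photosystem genes, 10 had a higher response in CNA-KnC3HDZ and none a lower one, and 31 fell in CNA against 8 in CNA-KnC3HDZ. LHCB6 went from 659 ± 94.7 to 472 ± 181 CPM in CNA-KnC3HDZ and from 975 ± 102 to 169.9 ± 46.3 CPM in CNA, a difference of 2.04 (SE 0.32). LHCB6 and GSTF8 overlap another counted gene. GASA1 went from 97.0 ± 9.32 to 214 ± 37.3 CPM in CNA, and its difference was 3.49 (SE 0.49). Of 20 XTH genes 4 had a higher response, XTH15 (5.18), XTH7 (2.89), XTH6 (2.76) and XTH4 (0.54 in CNA-KnC3HDZ against -0.96 in CNA). XTH6 was at 31.7 ± 5.42 CPM in CNA-KnC3HDZ mock and 93.0 ± 13.8 CPM in CNA mock seedlings (mean ± SD, n = 3), a difference that was called as well (adjusted p = 0.011). SKU5, a wall-associated protein of root growth, differed by 3.29 and OEP6 by 3.05. Of 40 arabinogalactan and fasciclin-like genes 5 had a higher and 1 a lower response. The median difference over all tested genes was 0.10. With 1 library of CNA-KnC3HDZ left out, the called differences numbered 4 to 10 for light-harvesting genes, with 4 without induced replicate 2. The higher ones of the arabinogalactan list numbered 1 without induced replicate 3 or mock replicate 1, 2 without induced replicate 2 or mock replicate 3, and 3 without mock replicate 2.

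**Figure D5:**
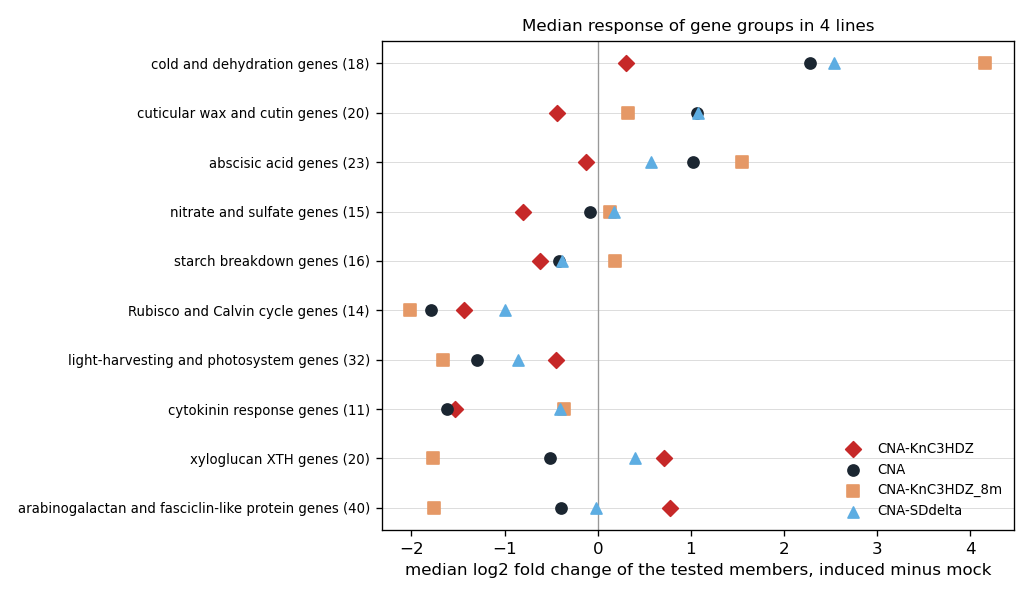
Median log2 change on induction of the tested members of 10 gene lists in the lines CNA-KnC3HDZ, CNA, CNA-KnC3HDZ_8m and CNA-SDdelta, with the number of tested members in parentheses. Cold and dehydration genes have a median of 0.31 in CNA-KnC3HDZ and 2.28 in CNA, and light-harvesting genes -0.45 and -1.30.

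In CNA-SDdelta, the line with the SDdelta form of CNA, 908 genes were called (4.8%, with 2.71% higher and 2.09% lower), of which 232 were shared with CNA-KnC3HDZ (37.2% of its genes and 25.6% of those of CNA-SDdelta). ZPR1 and ZPR4 differed in response between the lines. Mock levels were not tested between these lines. In CNA-KnC3HDZ mock seedlings ZPR1 was at 79.1 ± 20.9 CPM and ZPR4 at 8.18 ± 2.02 CPM. In CNA-SDdelta, ZPR1 was at 18.9 ± 2.95 CPM in mock and 21.5 ± 0.812 CPM in induced seedlings, and ZPR4 at 5.81 ± 4.01 and 3.69 ± 1.52 CPM (mean ± SD, n = 3). ATHB-15 changed by 0.99 on the log2 scale there without passing the test (adjusted p = 0.216). The response of CNA-KnC3HDZ exceeded that of CNA-SDdelta by 2.73 for ZPR1 (SE 0.43, adjusted p = 3.17e-05) and by 4.22 for ZPR4 (SE 0.70, adjusted p = 6.89e-05) on the log2 scale, by the interaction term in edgeR. Differences were called for 345 genes (1.82%), 102 higher (0.539%) and 243 lower (1.29%) in CNA-KnC3HDZ. GASA1 differed by 3.52, RABG3B by 2.88 and AT1G19530 by 2.04. The lower ones with the smallest p-values were KCS1 (-2.85), GSTF8 (-2.59), ERD10 (-2.99), COR15B (-5.34) and LTI30 (-2.41). Their mean mock levels, in that order, were 130, 624, 409, 17.3 and 195 CPM in CNA-KnC3HDZ. In CNA-SDdelta they were 66.5, 326, 202, 5.66 and 84.1 CPM. GASA1, RABG3B and AT1G19530 had mock means of 120, 46.1 and 1250 CPM in CNA-KnC3HDZ and 149, 105 and 1083 CPM in CNA-SDdelta. Of the cold list 10 of 18 members and of the wax list 10 of 20 had a lower response in CNA-KnC3HDZ, as against CNA. These comparisons share the CNA-KnC3HDZ libraries and are not independent. The count was 542 by DESeq2 and 858 with the 12 libraries alone.

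CNA-KnC3HDZ_8m differed from CNA-KnC3HDZ in 743 genes (3.93%), 427 with a higher (2.26%) and 316 with a lower (1.67%) response in CNA-KnC3HDZ_8m. Induction changed 7.01% of the genes in CNA-KnC3HDZ_8m, 3.51% in each direction. With the 12 libraries of both lines alone it was 1565. ZPR1 and ZPR4 rose there too, with log2 changes of 3.38 and 4.40, and their differences of 0.47 (SE 0.41) and 0.75 (SE 0.65) were not called. Of the 624 genes called in CNA-KnC3HDZ, 304 were called in CNA-KnC3HDZ_8m, 87 of them in the opposite direction. Mock levels were not tested between these lines, and they are given here for GASA1, KIN2, FLA2, FLA9, RABG3B, LTI30 and KIN1 only. GASA1 was at 3157 ± 2224 CPM in CNA-KnC3HDZ_8m mock seedlings and fell to 998 ± 206 CPM, whereas CNA-KnC3HDZ went from 120.1 ± 11.96 to 2973 ± 1601 CPM. KIN2, a cold-induced gene, was at 243 ± 33.5 CPM in mock and 9777 ± 1433 CPM in induced seedlings of CNA-KnC3HDZ_8m, against 3723 ± 297 and 3381 ± 288 CPM in CNA-KnC3HDZ (mean ± SD, n = 3). FLA2, FLA9 and RABG3B had a lower response in CNA-KnC3HDZ_8m than in CNA-KnC3HDZ, with differences of -5.63, -6.98 and -3.66. Mean mock levels of these genes, in that order, were 283.6, 243.6 and 222.3 CPM in CNA-KnC3HDZ_8m. In CNA-KnC3HDZ they were 17.44, 27.67 and 46.07 CPM. Of 32 light-harvesting and photosystem genes, 31 fell in CNA-KnC3HDZ_8m, and 21 had a lower response there than in CNA-KnC3HDZ (13 without induced replicate 2 of CNA-KnC3HDZ). Of 18 cold and dehydration genes, 14 had a higher response in CNA-KnC3HDZ_8m.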

How the data were processed

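The 48 libraries were RNA of whole Arabidopsis seedlings, extracted with Trizol and made into QuantSeq 3' libraries, per the labels' protocols. The deposited tables hold whole-number counts of reads per gene. Trimmomatic, STAR, featureCounts and DESeq2 and the TAIR10 build are named in the submitters' processing notes, and versions, strand setting and annotation are not given in the sources used here.

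Counts were tested with edgeR 4.0.16 in R 4.3.3 (filterByExpr by group, TMM, 1 mean per group over all 48 libraries, quasi-likelihood F test, Benjamini-Hochberg adjustment within each comparison over 18909 genes, called at an adjusted p below 0.05). SE is the size of the log2 change divided by the square root of F. CPM values use TMM-scaled totals. Differences between lines are interaction terms. Fewer than 3 counts is the floor, and it covers counting error only. Of 200 genes simulated with a log2 change of 2, 140 (70%) were recovered and 3 unchanged genes were called. For the difference from CNA, 82 (41%) were recovered. The 200 genes were drawn from those with higher mean counts only. Every other group had the same mean, and the spread followed the mean count alone. Recovery among all tested genes was therefore not measured.

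Genes were named by rule: the HD-ZIPIII and ZPR genes, the 10 largest called changes per direction without overlap and with a mean of at least 20 CPM, the 5 smallest p-values, at most 4 called members per list and direction, and 5 per direction for each difference. Members and lists were chosen with earlier results of these data known, and 5 lists and the genes named beyond the rule were added after values had been seen. Promoters were read from TAIR10.1. Of the marker genes and promoter windows examined, 1 of each is not reported here. Alternatives were DESeq2 1.42.0, its size factors, 2 other filters, the line's own libraries, a replicate block, thinning and leaving out each library.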

Additional observations from a re-analysis of the deposited data

Results flagged for a closer look

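The response to induction differed between lines, by interaction terms in edgeR, for 289 genes between CNA-KnC3HDZ and CNA, for 743 between CNA-KnC3HDZ_8m and CNA-KnC3HDZ, and for 345 between CNA-KnC3HDZ and CNA-SDdelta. These comparisons share the CNA-KnC3HDZ libraries.

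On the log2 scale, the response in CNA-KnC3HDZ minus that in CNA was 3.49 for GASA1, 3.29 for SKU5, 3.05 for OEP6, 2.76 for XTH6 and 2.04 for LHCB6. It was -3.21 for FMO GS-OX4, -3.18 for TSPO, -3.11 for LTI30, -2.50 for KCS1 and -2.28 for GSTF8.

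The response in CNA-KnC3HDZ_8m minus that in CNA-KnC3HDZ was 7.43 for TSPO, 5.58 for KIN1, 5.47 for KIN2, 4.76 for LTI30 and 3.33 for AT3G57020. It was -6.98 for FLA9, -6.29 for GASA1, -5.63 for FLA2, -3.83 for AT2G45180 and -3.66 for RABG3B. TSPO was at 9.28 ± 6.24 CPM in CNA-KnC3HDZ_8m mock seedlings and at 309 ± 59.3 CPM in those of CNA-KnC3HDZ (mean ± SD, n = 3). Mean mock levels of KIN1, KIN2, LTI30, AT3G57020 and AT2G45180, in that order, were 41.3, 243, 32.5, 104 and 16232.5 CPM in CNA-KnC3HDZ_8m. In CNA-KnC3HDZ they were 397, 3723, 195, 432 and 3110 CPM. The differences between these mock seedlings were not tested.

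The response in CNA-KnC3HDZ minus that in CNA-SDdelta was 4.22 for ZPR4, 3.52 for GASA1, 2.88 for RABG3B, 2.73 for ZPR1 and 2.04 for AT1G19530. It was -5.34 for COR15B, -2.99 for ERD10, -2.85 for KCS1, -2.59 for GSTF8 and -2.41 for LTI30. Mock seedlings of these lines were not tested against each other.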

How the results depend on the processing

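Of the 88 named genes that were called, 63 kept the call with each library of the line left out in turn and 82 under the other alternatives. The count of genes changed by induction was 1603 with the line's own 6 libraries, and 392 (without induced replicate 3) to 502 with 1 library left out. The difference from CNA gave 547 genes with 12 libraries, 489 by DESeq2 and 192 to 245 with 1 library left out. The difference of CNA-KnC3HDZ_8m gave 1565 with 12 libraries and 575 to 668 with 1 left out. That from CNA-SDdelta gave 858 with 12 libraries, 542 by DESeq2 and 238 to 300 with 1 left out. The mock difference from CNA, whose alternatives were chosen after seeing the data, gave 121 genes with no filter, 71 with the libraries of both lines, 81 by DESeq2 and 8 to 26 with 1 left out. REV, at -0.14, ran from -0.563 to 0.0808 with 1 library left out, and was above 0 without induced replicate 3 or mock replicate 1. PHB, at 0.05, ran from -0.197 to 0.413, was below 0 without induced replicate 2 or mock replicates 1 or 3, and was -0.0736 with all libraries thinned. Neither was called. The causes were not tested. Same-numbered libraries of the line correlated at -0.0151 to 0.00807 in their deviations from group means. This cannot show whether they shared a plate or a day. With the replicate block 612 genes were called for the induction, 285, 723 and 331 for the differences from CNA, of CNA-KnC3HDZ_8m and from CNA-SDdelta, and 3 for the mock difference. At these depths genes near the floor of 3 counts cannot be resolved.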

Other observations

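Mock seedlings of CNA-KnC3HDZ and CNA differed in 26 genes by edgeR's quasi-likelihood test, 12 higher and 14 lower in CNA-KnC3HDZ. MRD1 was at 71.3 ± 5.67 CPM in CNA-KnC3HDZ mock seedlings (mean ± SD, n = 3), while no count was seen in the 3 CNA mock libraries.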
